A study of Arabidopsis thaliana with 18 samples.

Results

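The 4 genes described here were chosen by symbol for their place in the cell division and endoreduplication machinery. They are SIM (SIAMESE, AT5G04470), AUR1 (AT4G32830), AUR2 (AT2G25880) and MCM7 (AT4G02060, also known as PROLIFERA or PRL). Each had 1 probe set assigned to that gene alone, so that 4 of the 13513 single-gene probe sets of the array are described. MCM7 was found through its synonym, since the reference record carries the symbol PRL.

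Plant cells that stop dividing often go on replicating their DNA without mitosis, a cycle called endoreduplication, and root hair cells also go through such cycles. SIM inhibits the cyclin-dependent kinases that drive entry into mitosis, and loss of SIM in Arabidopsis leaf trichomes lets these single cells divide. AUR1 and AUR2 are closely related alpha-type Aurora kinases of the mitotic spindle and the cell plate. MCM7 is a subunit of the helicase that is loaded at replication origins before DNA synthesis, a step that precedes mitosis and endoreduplication alike.

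GTL1 and DF1 are trihelix transcription factors that limit root hair growth, and the study set lines with more or less of each against each other and against wild type. Roots of Arabidopsis seedlings were taken at 5 days and digested to protoplasts, green fluorescent cells were collected by flow sorting, and their RNA was hybridized to 18 Affymetrix ATH1 arrays, 3 for each of 6 genotypes. The overexpression lines GTL1ox and DF1ox carried GTL1 or DF1 fused to GFP under the promoter of the expansin gene EXPA7, which is active in root hair cells, and the fusion protein was itself the sorted signal. The single mutants gtl1 (gtl1-1) and df1 (df1-1), the double mutant gtl1df1 (gtl1-1df1-1) and wild type (WT) carried a nuclear GFP under the same promoter, so the lines differ in the sorted protein as well as in the factor. Each transgene acts in the cells that the promoter marks, and the labels name no second line of either overexpressor. Expression is given on the log2 scale of the deposited values, on which 1 unit is a 2-fold change. The lowest value of the table was 2.22, and 27.9% of all values lay within 0.01 of it. Where every array of the dimmer genotype lay within 2-fold of it, a difference is called a lower limit.

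The lines and the sorted cells were checked first. The transcript of DF1 reached 14.30, 14.09 and 14.24 in the DF1ox arrays and lay between 3.30 and 3.74 in df1 and between 3.41 and 5.03 in gtl1df1, against 7.23, 7.26 and 7.57 in WT. DF1 lay between 4.83 and 5.53 in GTL1ox, a difference from WT of -2.10 ± 0.32 (SE, adjusted p = 0.000281 in limma). In gtl1 it lay between 8.38 and 8.83, a difference of 1.22 ± 0.32 (adjusted p = 0.0282). GTL1ox and gtl1 thus differed from WT in the DF1 transcript as well, and the part of this in the results was not tested. GTL1 itself was not analysed here. EXPA7, the marker gene of the sort, lay between 12.78 and 13.34 in all 18 arrays, and BBM, the only one of 4 root meristem markers with a probe set of its own, did not exceed 2.39. BBM was thus at the bottom of the scale in all 18 arrays, and it cannot show that meristem cells were absent. The hybridization control BioB, a bacterial transcript, lay between 7.06 and 8.13 in the 9 arrays of the mutants and between 2.50 and 2.99 in the 9 arrays of GTL1ox, DF1ox and WT. The hybridization controls BioC, BioD and Cre were split the same way. Their means were 8.88, 11.35 and 13.87 in the mutants and 6.78, 9.62 and 12.54 in the arrays of GTL1ox, DF1ox and WT. Wherever a mutant was compared with WT, or an overexpression line with gtl1df1, this shift and the genotype cannot be told apart. The 3' excess of the internal control transcripts over their 5' signal, which widens as RNA degrades, averaged 1.19 in GTL1ox and 1.81 in df1, with the other genotypes between 1.42 and 1.59, and its part in the results was not tested. In sorted cells measured in bulk, a lower level in each cell and a smaller share of cells that express a gene cannot be told apart.

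Whether SIM responds to either factor was asked first. SIM was clearly above the bottom of the scale in every array, and it was highest in WT. Its values were 7.47, 8.20 and 8.27 in GTL1ox, 9.28, 9.35 and 9.09 in DF1ox, and 9.94, 10.31 and 10.07 in WT. The mutants lay near DF1ox, with 9.24, 9.22 and 9.14 in gtl1, 9.56, 9.09 and 9.45 in df1, and 8.90, 8.65 and 9.36 in gtl1df1. All 3 GTL1ox arrays were below all other arrays and all 3 WT arrays were above them. Between these ends the order of the means was df1 (9.36), DF1ox (9.24), gtl1 (9.20) and gtl1df1 (8.97), and the arrays of each of these genotypes overlapped those of its neighbours. WT arrays lay above all the others for 1.27% of all probe sets, and the share with GTL1ox arrays below all others was not counted.

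**Figure D1:**
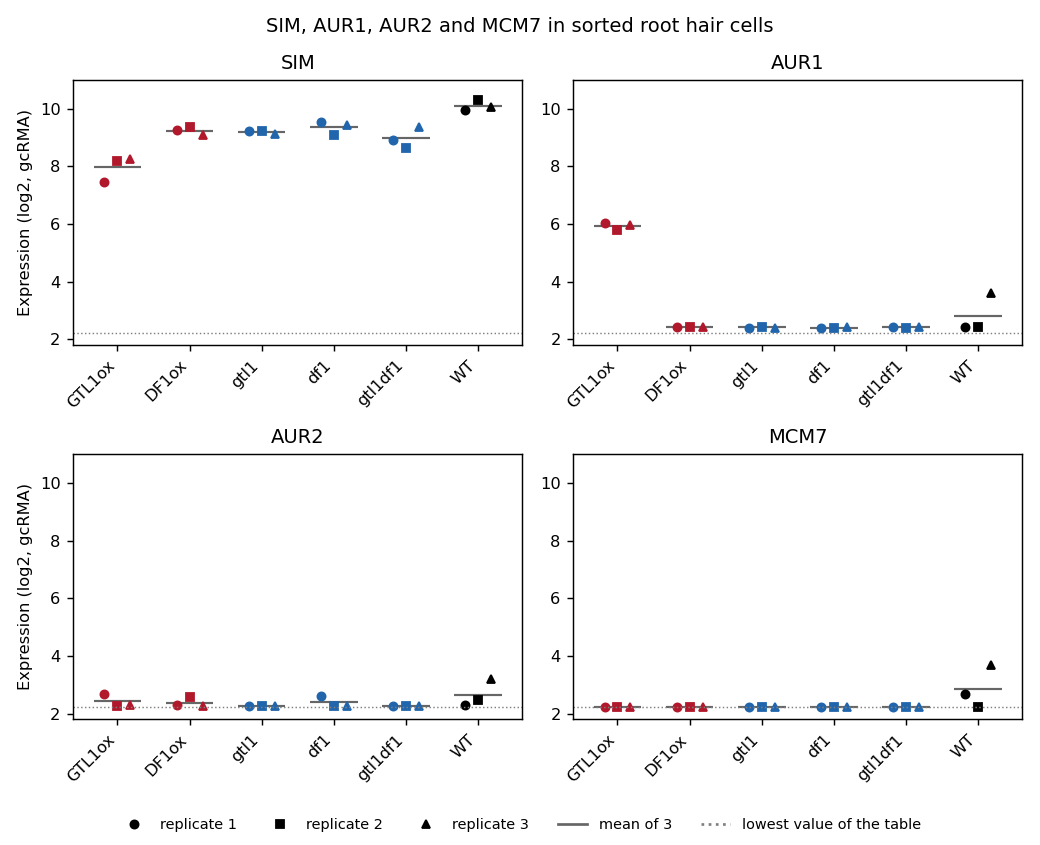
Expression of the 4 genes in each array (log2 of the deposited gcRMA values, vertical axis) by genotype (horizontal axis), with 1 marker per replicate, a bar at the mean of 3 and a dotted line at the lowest value of the table, 2.22. SIM is lowest in GTL1ox and highest in WT, AUR1 is near 6 in GTL1ox and near 2.4 elsewhere except in WT replicate 3, and AUR2 and MCM7 stay near the lowest value outside that same WT array.

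SIM fell in both overexpression lines. It averaged 7.98 ± 0.44 (SD, n = 3) in GTL1ox and 10.11 ± 0.18 in WT, a difference of -2.12 ± 0.22 (SE, adjusted p = 8.94e-06 in limma), which is 4.36-fold lower. In DF1ox it averaged 9.24 ± 0.13, with a difference from WT of -0.87 ± 0.22 (adjusted p = 0.0276). Of all probe sets, 24.5% were called in GTL1ox against WT, 9.65% lower and 14.9% higher, and 8.04% were called in DF1ox against WT, with 4.18% lower. SIM was also lower in GTL1ox than in DF1ox (difference -1.26 ± 0.22, adjusted p = 0.000926), a comparison in which 7.42% of probe sets were called lower and 13.1% higher. The fall in GTL1ox held within the 9 arrays that share the level of BioB, where its adjusted p was 0.00138. The fall in DF1ox was less firm. It had an adjusted p of 0.119 within those 9 arrays and of 0.0937 when DF1ox and WT alone were fitted, and it passed the threshold when WT replicate 1 was left out but not without any of the other 5 arrays in turn, with values up to 0.0949.

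In GTL1ox, 2 of the 3 measured markers of the root hair cell fell with SIM against WT, where 9.65% of all probe sets were called lower. Of 8 listed markers 3 had a probe set of their own, EXPA7, EXPA18 (a second root hair expansin) and XTH26 (a xyloglucan-modifying enzyme of the cell wall). EXPA18 was 12.81, 12.92 and 12.77 in GTL1ox and 14.34, 14.21 and 14.29 in WT, and XTH26 was 9.69, 9.42 and 9.31 in GTL1ox and 12.07, 11.43 and 11.68 in WT. Both were thus lower in every GTL1ox array, by differences of -1.45 ± 0.05 (SE, adjusted p = 1.11e-09) and -2.25 ± 0.19 (adjusted p = 1.47e-06), while EXPA7 was not called. The summed level of the 3 markers, as log2 of their added linear values, lay between 14.09 and 14.17 in GTL1ox, 14.82 and 14.91 in DF1ox, 14.85 and 14.90 in gtl1, 14.72 and 14.79 in df1, 14.58 and 14.71 in gtl1df1, and 14.91 and 15.06 in WT. Against WT, 1 of the 3 was called lower in DF1ox, 0 in gtl1, 2 in df1 and 3 in gtl1df1, EXPA7 among the last with an adjusted p of up to 0.132 when 1 array was left out. In the same comparisons 4.18%, 6.54%, 10% and 7.92% of all probe sets were called lower. None of these marker calls held when the line and WT alone were fitted. The adjusted p then ran from 0.0543 (EXPA18 in gtl1df1) to 0.144 (XTH26 in df1). That of EXPA18 in df1 was 0.0897 after quantile normalization. Whether this bears on SIM or AUR1 was not tested, and markers of non-hair epidermis, ground tissue, stele and root cap were not analysed here.

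SIM was lower in each mutant than in WT as well. It differed by -0.91 ± 0.22 (SE, n = 3, adjusted p = 0.0168) in gtl1, by -0.74 ± 0.22 (adjusted p = 0.0316) in df1 and by -1.14 ± 0.22 (adjusted p = 0.00313) in gtl1df1. In these comparisons 11.8%, 17.6% and 14.7% of probe sets were called, and 6.54%, 10% and 7.92% were called lower. When each mutant was fitted with WT alone, the adjusted p was 0.0676 in gtl1, 0.118 in df1 and 0.0779 in gtl1df1. Without WT replicate 2 it was 0.0575 in gtl1 and 0.106 in df1, and in df1 it was 0.0735 without WT replicate 3, 0.127 without df1 replicate 2 and 0.0596 without df1 replicate 3.

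SIM was thus called lower in all 5 comparisons with WT, 1 of 140 such probe sets, which are 0.615% of all. These comparisons share the 3 WT arrays, so they are not separate observations of a change. The interaction, which sets the joint change in gtl1df1 against the sum of the changes in gtl1 and df1, was 0.51 with a 95% interval of -0.15 to 1.17 (adjusted p = 0.340), and 15.6% of probe sets were called in it. Whether the single changes added up in the double mutant was therefore not resolved for SIM.

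In the comparisons that did not involve WT, SIM was called only where GTL1ox was 1 of the genotypes. Gain of GTL1 against loss of both factors, the contrast by which the study picked response genes, gave -0.99 ± 0.22 (SE, adjusted p = 0.00305) for GTL1ox against gtl1df1, with means of 7.98 and 8.97. The study also required more than a 2-fold change, and SIM was 1.98-fold lower here. In that comparison 11.6% of probe sets were called lower and 17.7% higher, 29.3% in all, and the adjusted p of SIM was 0.101 when GTL1ox and gtl1df1 alone were fitted. DF1ox differed from gtl1df1 by 0.27 (95% interval -0.20 to 0.74, adjusted p = 0.499), where 20.8% of probe sets were called. Within the mutants, gtl1df1 differed from gtl1 by -0.23 (95% interval -0.70 to 0.24) and from df1 by -0.40 (95% interval -0.86 to 0.07), with 4.71% and 17.4% of probe sets called. All 3 intervals include 0.

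**Figure D2:**
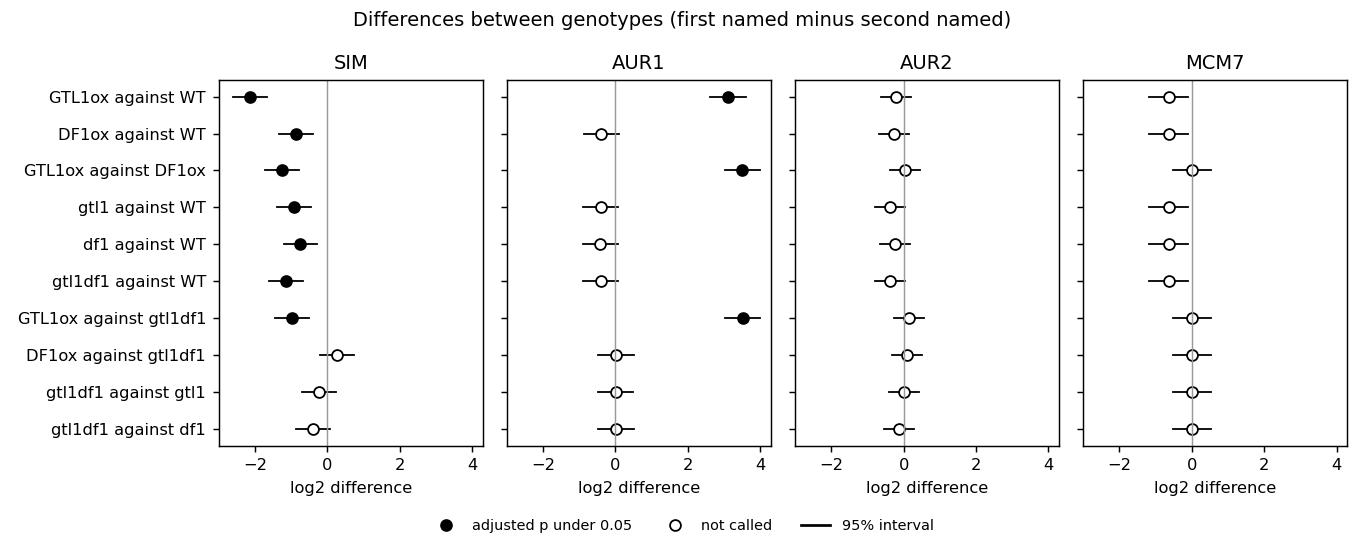
Difference in expression of each gene (log2, horizontal axis) in 10 comparisons (vertical axis), as the first genotype named minus the second, with the 95% interval of the limma fit. Filled points passed an adjusted p of 0.05. SIM lies below 0 in all 5 comparisons with WT, and AUR1 is between 3.11 and 3.51 in the 3 comparisons that hold GTL1ox and is not called elsewhere.

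AUR1 was raised in GTL1ox and was near the bottom of the scale in the other genotypes. Its values were 6.03, 5.79 and 5.96 in GTL1ox, 2.43 in each of the 3 DF1ox arrays, and 2.43, 2.43 and 3.60 in WT. In gtl1, df1 and gtl1df1 all 9 arrays lay between 2.39 and 2.43. Thus 14 of 18 arrays were within 0.05 of the lowest value of this probe set. The GTL1ox arrays lay above all others, and the share of probe sets with that pattern was not counted. AUR1 was higher in GTL1ox than in WT by 3.11 ± 0.22 (SE, n = 3, adjusted p = 4.22e-07). Without WT replicate 3, the array at 3.60, all WT values were near the lowest, and the rise was at least 3.50 (adjusted p = 1.31e-12). It was at least 3.50 against DF1ox (adjusted p = 2.63e-07) and at least 3.51 against gtl1df1 (adjusted p = 9.58e-08), the last being at least 11.4-fold. In the fit without WT replicate 3 the spread was narrowed by arrays at the bottom of the scale, so its p-value overstates the precision. Such arrays narrowed the spread in the fit of all arrays too. With GTL1ox and WT alone fitted in limma, the SE of the rise was 0.38 and its adjusted p was 0.0141.

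In the other comparisons AUR1 was not called. DF1ox, gtl1, df1 and gtl1df1 differed from WT by -0.39, -0.41, -0.42 and -0.40, with adjusted p between 0.265 and 0.354. These differences rest on WT replicate 3, without which they were 0.00, -0.02, -0.03 and -0.01. Between DF1ox and the mutants the arrays were at the lowest level on both sides, so no fold is given. A pattern like that of AUR1, called higher in GTL1ox against WT, DF1ox and gtl1df1 and called in no other comparison, was found for 985 probe sets or 4.33% of all.

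No change was called for AUR2. Its values were 2.67, 2.28 and 2.31 in GTL1ox, 2.29, 2.58 and 2.28 in DF1ox, and 2.29, 2.46 and 3.18 in WT, and the mutants lay between 2.26 and 2.62. All 18 arrays lay within 2-fold of the lowest value of the table, so AUR2 was not measured clearly above the bottom of the scale in any genotype. GTL1ox differed from WT by -0.22 (95% interval -0.64 to 0.19, adjusted p = 0.540) and from gtl1df1 by 0.14 (95% interval -0.27 to 0.56, adjusted p = 0.797). In none of the 11 comparisons was AUR2 called by limma, and no unadjusted p was under 0.05. At this level a small change would not be detectable.

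MCM7 was at 2.22, the lowest value of the table, in all 15 arrays of the overexpression lines and mutants. In WT it was at 2.67, 2.22 and 3.69. The range in WT spans 2.22, so the groups overlapped, and each of the 5 genotypes differed from WT by -0.64 ± 0.24 (SE, 95% interval -1.17 to -0.11). By the rule above this size is a lower limit, though WT replicate 2 was at the bottom as well. The unadjusted p was 0.0223 in each, and the adjusted p lay between 0.0811 and 0.142, above the threshold. The SD was 0.75 in WT and 0 in the other genotypes, so arrays at the bottom of the scale narrowed the pooled SE. With GTL1ox and WT alone fitted in limma, the SE was 0.41 and the adjusted p was 0.492. The difference rests on WT replicates 1 and 3. Without replicate 3 it was -0.22, with an adjusted p between 0.0913 and 0.183, and without replicate 2, the array at 2.22, it was -0.96 and was called in all 5 comparisons, with an adjusted p between 0.00304 and 0.0111. Between the other genotypes the measured difference was 0, which says only that both were at the bottom of the scale.

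WT replicate 3 thus stood apart in 3 of the 4 genes. It held the highest value of AUR1 outside GTL1ox, 3.60, and the highest values of AUR2 and MCM7 in the series, 3.18 and 3.69, while its SIM value of 10.07 lay between those of the other WT arrays. HTB2, a gene for the core histone H2B that was added after its values had been seen, was also highest in that array. It was at 7.08 there, against 5.43 and 4.99 in WT replicates 1 and 2. Other division and endoreduplication genes, described below, went either way. Among the WT arrays BUB3.1 was highest in replicate 3, at 2.92, while CDC27a and BIN4 were lowest there, both at 4.24. The share of all probe sets that were highest in that array was not counted. BBM, which was at the bottom of the scale in every array, was at 2.23 there.

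How other genes of division and endoreduplication behaved was read from 9 lists of 120 names. With SIM, AUR1, AUR2 and MCM7, 11 of these had a single-gene probe set, which leaves 7 others. AUR3, WYR (the inner centromere protein that partners Aurora kinases), BUBR1 and BUB3.1 of the spindle checkpoint, HTR12 (the centromeric histone), ICU2 (a subunit of DNA polymerase alpha) and BIN4 (a part of the topoisomerase complex needed for endoreduplication) made up the 7. In each of GTL1ox against WT, DF1ox and gtl1df1, 1 of the 7 was called higher and 0 lower, where 24.5%, 20.5% and 29.3% of all probe sets were called. In the other 8 comparisons none of the 7 was called. The median difference over the 7 was between -0.02 and 0.02 in all 11 comparisons, and the median over all probe sets was 0. Most of the 7 were at the bottom of the scale, so this median and the lack of lower calls could hardly show a fall.

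The gene that rose was AUR3, the beta-type Aurora kinase, which acts at centromeres. Its values were 4.22, 4.25 and 4.37 in GTL1ox, 2.62 in each array of DF1ox and the mutants, and 2.62, 2.62 and 2.68 in WT. The rise was at least 1.65 against WT (adjusted p = 1.5e-12), at least 1.67 against DF1ox (adjusted p = 1.28e-12) and at least 1.67 against gtl1df1 (adjusted p = 8.56e-13). The SD of AUR3 was 0.08 in GTL1ox and 0 in DF1ox and the mutants, whose arrays all held the lowest value of this probe set. Those arrays narrowed the pooled SE to 0.03, so these p-values overstate the precision. AUR1 and AUR3 thus rose in the same 3 arrays, a change that was not called for AUR2. WYR, BUBR1, BUB3.1 and ICU2 lay within 2-fold of the lowest value of the table in all 18 arrays. HTR12 was between 3.70 and 4.40, and BIN4 did not exceed 4.60.

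**Figure D3:**
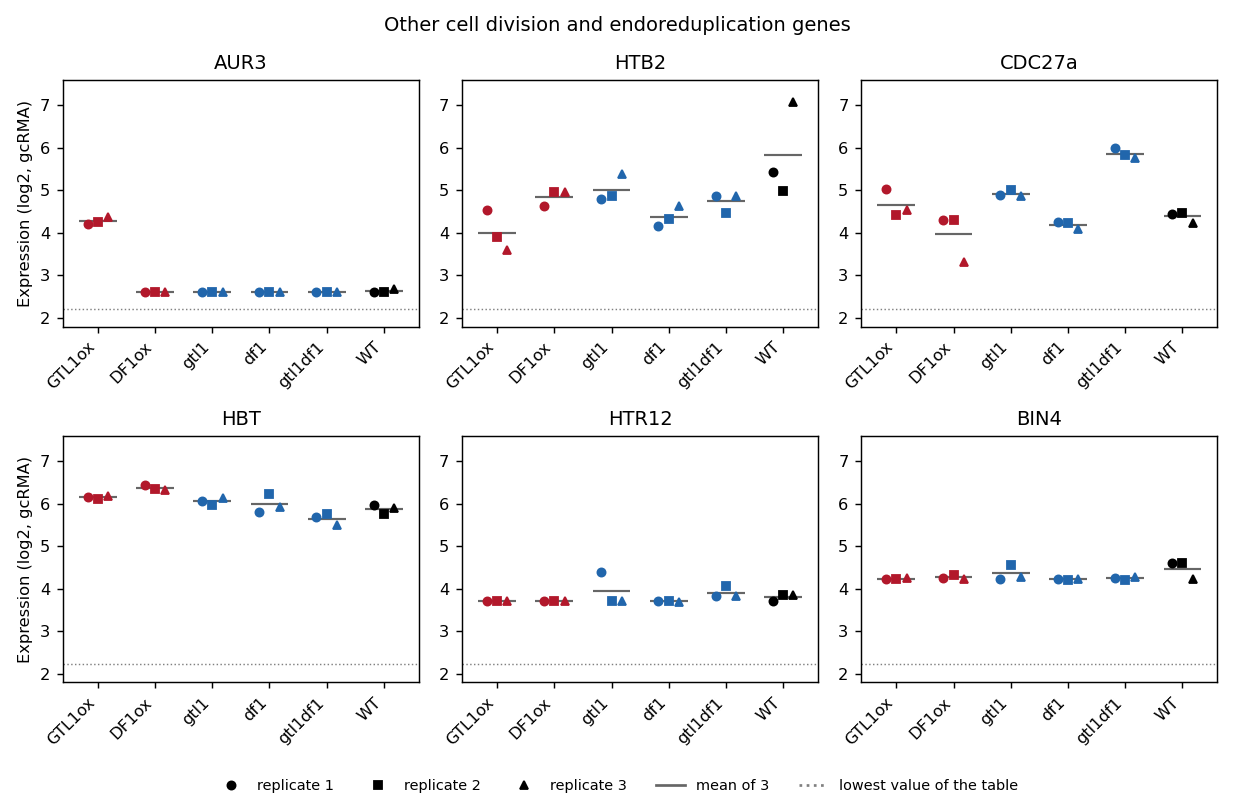
Expression of AUR3, HTB2, CDC27a, HBT, HTR12 and BIN4 in each array (log2, vertical axis) by genotype (horizontal axis), with 1 marker per replicate and a bar at the mean of 3. AUR3 lies between 4.22 and 4.37 in GTL1ox and near 2.62 elsewhere, HTB2 is highest in WT replicate 3 at 7.08, and CDC27a is highest in gtl1df1, from 5.75 to 6.01.

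A further 5 genes with names from the cell division machinery were added after their values had been seen. They were HTB2, ATSMC2 (a condensin subunit), KINESIN-12B (a kinesin of the phragmoplast), and CDC27a and HBT, which encode alternative forms of a subunit of the anaphase-promoting complex, the ubiquitin ligase that destroys mitotic cyclins. ATSMC2 did not exceed 2.25 and KINESIN-12B did not exceed 2.54 in any array. HTB2 was 4.54, 3.90 and 3.59 in GTL1ox and 5.43, 4.99 and 7.08 in WT, a difference of -1.83 ± 0.42 (SE, adjusted p = 0.00589). In that comparison 9.65% of all probe sets were called lower. The difference was -1.21 without WT replicate 3, and the adjusted p was 0.190 when GTL1ox and WT alone were fitted and 0.0716 within the 9 arrays that share the level of BioB. HTB2 was also lower in df1, at 4.16, 4.33 and 4.63, with a difference from WT of -1.46 ± 0.42 (adjusted p = 0.0309). Without WT replicate 3 this was -0.84 (adjusted p = 0.0723), and the adjusted p was 0.0896 without df1 replicate 1, 0.0868 without df1 replicate 2 and 0.316 when df1 and WT alone were fitted.

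CDC27a was highest in the double mutant. Its values were 6.01, 5.84 and 5.75 in gtl1df1, 4.88, 5.02 and 4.86 in gtl1, 4.27, 4.23 and 4.09 in df1, and 4.45, 4.47 and 4.24 in WT. All gtl1df1 arrays lay above all others of these genotypes. CDC27a rose by 1.48 ± 0.22 (SE, adjusted p = 0.000657) against WT and by 1.67 ± 0.22 (adjusted p = 0.000226) against df1. It was 0.95 ± 0.22 above gtl1 (adjusted p = 0.0304, but between 0.058 and 0.109 when 1 array was left out). Against gtl1df1, CDC27a differed by -1.20 ± 0.22 in GTL1ox (adjusted p = 0.000913 in limma) and by -1.90 ± 0.22 in DF1ox (adjusted p = 4.68e-05). GTL1ox lay 0.69 ± 0.22 above DF1ox (adjusted p = 0.0439, or 0.348 with GTL1ox and DF1ox fitted alone). HBT was 6.44, 6.36 and 6.33 in DF1ox, 5.69, 5.76 and 5.50 in gtl1df1 and 5.98, 5.75 and 5.90 in WT. It was thus lowest in the double mutant and highest in DF1ox, by 0.72 ± 0.10 (adjusted p = 0.00012) over gtl1df1 and by 0.50 ± 0.10 over WT (adjusted p = 0.00708, or 0.092 with DF1ox and WT fitted alone).

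Which genes had the most similar profile was described by Pearson's r over the 18 arrays, among 4754 single-gene probe sets whose values spanned more than 1 log2 unit. These arrays fall into genotypes, so r measures mainly the shared order of the genotypes, and no test was made. For AUR1 the closest were AT5G62550 (r = 0.984), AUR3 (0.981), AT5G25580 (0.979), AT5G18600 (0.978) and SWEET8 (0.977), a sugar transporter gene. For SIM the closest were AT5G21130 (r = 0.932), AT5G14390 (0.921), AT2G28200 (0.918), AT1G55290 (0.916) and AT1G70000 (0.906). For MCM7 they were AT5G01090, AT3G57000, AT1G79150, AT4G32605 and AT2G27590, at 0.991 to 1.0, values that rest on WT replicates 1 and 3. AUR2 spanned 0.92 and was left out.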

How the data were processed

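The authors hybridized RNA of sorted root hair protoplasts to ATH1 arrays and computed log2 expression values by gcRMA through AffylmGUI in R, which corrects the background, normalizes between arrays and gives 1 value per probe set. The deposited log2 values were used without a further transformation, and all 18 columns were matched to samples by their labels. The label protocol names two-cycle labelling for some arrays without saying which, and the version of the software is not stated in the methods or labels. After 64 control probe sets were left out, 22746 were tested without a filter. Platform annotation gave 13513 of them 1 gene, 503 several and 8730 none. Names were taken from a RefSeq gene table (TAIR10.1), and no sequence was used here. The records of their loci did not carry 10 of the listed names. List members without a probe set of their own were not analysed here.

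With limma 3.58.1 (R 4.3.3), a model with the mean of each genotype took in all 18 arrays, and differences were tested two-sided with Benjamini-Hochberg adjustment over all probe sets and a threshold of 0.05. This was done for 10 pairs of genotypes and the interaction. The p-values measure only the spread between arrays of the same genotype, 3 for each, pooled over all genotypes in the fit. In the fit of all 18 arrays the SE of a pair thus also rests on genotypes outside that pair. For SIM this SE was 0.22 in each of the 10 pairs, while its SD was 0.05 in gtl1 and 0.44 in GTL1ox. The number of arrays limits the precision. The genes, lists and comparisons were chosen with earlier results of these data known. The rule for named genes took the 4 genes, up to 4 called members of each list per comparison, and the 5 most similar profiles. Alternatives were quantile normalization, a fit restricted to the genotypes compared, a filter on dim probe sets, the replicate number as a block, an intensity trend, and leaving out each array. A fit of the 9 arrays with 1 level of BioB was added after the data were examined. Replicate numbers deviated together (every correlation of same-number arrays above 0.1) among the compared pairs only for gtl1df1 with df1, at 0.101, 0.208 and 0.279. Figures were drawn in matplotlib 3.10.9 under Python 3.11.15 with pandas 2.3.3.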

Additional observations from a re-analysis of the deposited data

Results flagged for a closer look

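None of SIM, AUR1, AUR2 and MCM7 showed a called difference between the effect of 1 mutation in the presence and in the absence of the other. Among the further cell division genes, 2 did by the interaction term, in which 15.6% of all probe sets were called by limma. For CDC27a the joint change in gtl1df1 exceeded the sum of the changes in gtl1 and df1 by 1.14 ± 0.32 (SE, adjusted p = 0.027). The adjusted p became 0.091 after quantile normalization, and it missed the threshold when WT replicate 2, gtl1 replicate 1 or 3, df1 replicate 2 or 3, or gtl1df1 replicate 1 was left out, with 0.0659 as the highest. For HBT it was -0.52 ± 0.14 (adjusted p = 0.0208), which became 0.0768 when GTL1ox and DF1ox were left out and 0.0521 without gtl1df1 replicate 3. Both genes were chosen after their values had been seen, and the comparison crosses the arrays that differ in BioB.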

How the results depend on the processing

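Each difference of SIM, AUR1, AUR2 and MCM7 was recomputed under every alternative, 495 values in all. Of these 462 kept their direction and their side of the threshold, 16, all of SIM, were no longer called, 6, all of MCM7, became called, and 11 reversed, 4 of AUR1 and 7 of AUR2. When the compared genotypes alone were fitted, which leaves fewer arrays to estimate the spread, SIM was no longer called in DF1ox against WT (-0.87), gtl1 against WT (-0.91), df1 against WT (-0.74), gtl1df1 against WT (-1.14) and GTL1ox against gtl1df1 (-0.99), and the probe sets called were 2888 in GTL1ox, 78 in DF1ox, 125 in gtl1, 333 in df1 and 990 in gtl1df1 against WT and 358 in gtl1df1 against gtl1, against 5574, 1828, 2678, 3995, 3342 and 1071 in the fit of all arrays. Within 9 arrays of the same BioB level, SIM in DF1ox against WT was again -0.87 and not called, and 667 probe sets were called there and 706 in gtl1df1 against gtl1. With dim probe sets left out, 1615 were called in gtl1df1 against gtl1, and AUR1, AUR2 and MCM7 were too dim to be tested. Quantile normalization turned AUR1 in DF1ox against gtl1df1 to -0.00689, from arrays at the bottom of the scale. With the replicate number as a block, all 44 differences kept their call, and SIM had an adjusted p of 4.73e-05 in GTL1ox, 0.0421 in DF1ox and 0.046 in df1 against WT. Among the other genes named, the calls of HBT in gtl1df1 against gtl1 (adjusted p = 0.0542 in limma) and of EXPA7 in gtl1df1 against df1 (adjusted p = 0.0573, against 0.0357 without it) were lost with this replicate block. Both calls were also lost when the compared genotypes alone were fitted (adjusted p = 0.130 and 0.219). Of the 6 fits that left out 1 array, the call of HBT held in 1 and that of EXPA7 in 2. Leaving out 1 array moved SIM against WT between -0.95 and -0.77 in DF1ox, -0.99 and -0.81 in gtl1, and -0.84 and -0.61 in df1. MCM7 ranged from -0.96 to -0.22 in each of the 5 genotypes against WT and from 0.22 to 0.96 in the interaction, where it was called without WT replicate 2 (adjusted p = 0.0285). AUR2 ranged from -0.40 to 0.048 in GTL1ox, -0.44 to 0.0095 in DF1ox and -0.43 to 0.019 in df1 against WT, from -0.088 to 0.14 in GTL1ox against DF1ox and from -0.014 to 0.44 in the interaction. AUR1 ranged from -0.59 to 0.00076 in DF1ox against WT and from -0.0021 to 0.018 in gtl1df1 against gtl1. The probe sets called ranged from 2636, without df1 replicate 2, to 4226 in df1 against WT and from 573 to 1048 in gtl1df1 against gtl1. The cause of these changes was not tested. The scale bottoms out at 2.22, so that AUR1 outside GTL1ox, AUR2 and MCM7 have bounds rather than levels, and 3 arrays per genotype limit the precision.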
